A study of Sus scrofa domesticus with 34 samples.

Results

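The genes described here are the 6 protein-coding genes of pig mitochondrial DNA whose products belong to complexes III, IV and V of oxidative phosphorylation: CYTB, COX1, COX2, COX3, ATP6 and ATP8. They were taken by the Ensembl identifier of each symbol, ENSSSCG00000018094 for CYTB, ENSSSCG00000018075 for COX1, ENSSSCG00000018078 for COX2, ENSSSCG00000018082 for COX3, ENSSSCG00000018081 for ATP6 and ENSSSCG00000018080 for ATP8, and are 6 of the 31907 genes in the count files. All 6 were found in each of 34 libraries, and all 6 passed the filter on low counts. The 7 mitochondrially encoded genes of complex I are used only for comparison.

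The study fed pigs 4 diets that differed in the form and the dose of vitamin D, and sequenced 34 samples labelled muscle by a 3′ method. Doses are in IU per kg of feed, first for growers and then for finishers. Pigs on the 25(OH)D diet (n = 8) ate 2000 and 1500 IU of 25-hydroxyvitamin D3 without cholecalciferol. Those on the combination diet (n = 8) received cholecalciferol at 2000 and 1500 IU plus 25(OH)D at 1000 IU throughout. The increased cholecalciferol diet (n = 10) supplied 3000 and 2500 IU, and the standard cholecalciferol diet (n = 8), which served as the control, supplied 2000 and 1500 IU. Each diet had 4 castrated males, and 4 females apart from increased cholecalciferol, which had 6. 25(OH)D, or calcidiol, is what the liver makes of cholecalciferol by hydroxylation. The labels name no breed, age or time on the diets.

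Mitochondrial DNA is transcribed as long RNAs that span many genes, and the tRNAs between the coding sequences mark where these are cut into single messengers, which then receive short poly(A) tails. Cytochrome b, from CYTB, is the only subunit of complex III made inside the organelle. COX1, COX2 and COX3 form the catalytic core of cytochrome c oxidase, the complex that passes electrons to oxygen, and ATP6 and ATP8 sit in the membrane part of ATP synthase, where ATP6 lines the proton path. In both skeletal muscle and brain these messengers are among the most abundant of the cell. In RefSeq's table for Sscrofa11.1, COX1 and COX2 are separated by tRNAs. ATP8 overlaps ATP6, and ATP6 in turn overlaps COX3, with no tRNA between them. CYTB stands apart from the other 5 behind ND5 and ND6.

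Each read of this assay marks the 3′ end of a polyadenylated RNA. Counts therefore do not scale with gene length, and the levels below are CPM, the usual scaling of counts to a common library total, with no division by length. ATP8 shares an RNA with ATP6 and lies at its 5′ side, and reads in the overlap of both genes are left as ambiguous by the counting, so the ATP8 count is not a level of that shared RNA. Reads in the overlap of ATP6 with COX3 are left out in the same way. Reads that also align to copies of mitochondrial DNA in the nuclear genome are not counted. The samples are bulk RNA, in which fewer cells of a type and less RNA per cell cannot be told apart.

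Libraries held 1340442 to 30363640 gene counts, and depth followed the number in the name of the deposited file: 4082918 to 13172623 in files 1 to 24, 16812323 to 30363640 in files 25 to 29 and 1340442 to 2687728 in files 30 to 34. The diets were spread unevenly over these numbers. Files 1 to 12 held 7 libraries of 25(OH)D and 5 of standard cholecalciferol, files 13 to 24 held 3 of the combination and 9 of increased cholecalciferol, files 25 to 29 held 1 of the combination, 1 of increased and 3 of standard cholecalciferol, and files 30 to 34 held 1 of 25(OH)D and 4 of the combination. The label muscle stood against the marker lists by mean log2(CPM + 1). That of the skeletal muscle list lay below that of the neuron, the astrocyte and the oligodendrocyte lists in 34 of 34 libraries, though genes of the muscle list were also abundant. Of the 22 muscle genes listed 15 had a matching identifier, and MYH1, MYH2, MYH4, MYH7, TTN, MB and MYLPF had none. Summed CPM gave no fixed order. In 25(OH)D replicate 1 the muscle list summed to 8412 CPM, against 7147, 5512 and 2065 CPM for the neuron, oligodendrocyte and astrocyte lists. In standard cholecalciferol replicate 1 it summed to 1641 CPM, against 9211, 2612 and 2217 CPM. The 15 muscle genes averaged from 0.452 CPM for TNNI1 to 1645 CPM for ACTA1, with TNNC2 at 943 CPM and PVALB at 815 CPM, and the 11 neuronal genes from 65.3 CPM for SYP to 1560 CPM for STMN2. In the 4 females of files 30 to 34, the Y-linked genes KDM5D and EIF1AY summed to 5.71 to 7.83 CPM, against 0.588 to 4.77 CPM in the other 14 females. The 15 castrated males of files 1 to 29 were at 6.70 CPM or more, with a median of 12.27 CPM. The levels of these 4 females thus reached into the range of the males, and whether their sex labels hold was not tested. Counts and medians from edgeR for pairs of diets, and the test of sex, are therefore given with and without files 30 to 34. Correlations are given over all libraries and within files 1 to 24. The F-test over all diets, the interaction of diet and sex and most values of single genes are given over all libraries only.

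Together the 6 genes took 9.59 to 24.1% of all gene counts in a library, with a median of 14.7%. The share was 17.7 ± 4.51% with 25(OH)D, 14.0 ± 2.31% with the combination, 14.9 ± 2.74% with increased cholecalciferol and 15.5 ± 5.43% with standard cholecalciferol (SD, n = 8, 8, 10 and 8). The 4 highest shares, 24.1 and 23.3% in 25(OH)D replicates 3 and 4 and 23.9 and 22.2% in standard cholecalciferol replicates 4 and 2, all came from files 1 to 12. In these 4 libraries the most abundant feature without a symbol, ENSSSCG00000048719, took 3.25, 6.04, 5.09 and 8.56% of the counts in the same order, against a median of 10.8% over all libraries, and its part in the high shares was not tested.

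**Figure D1:**
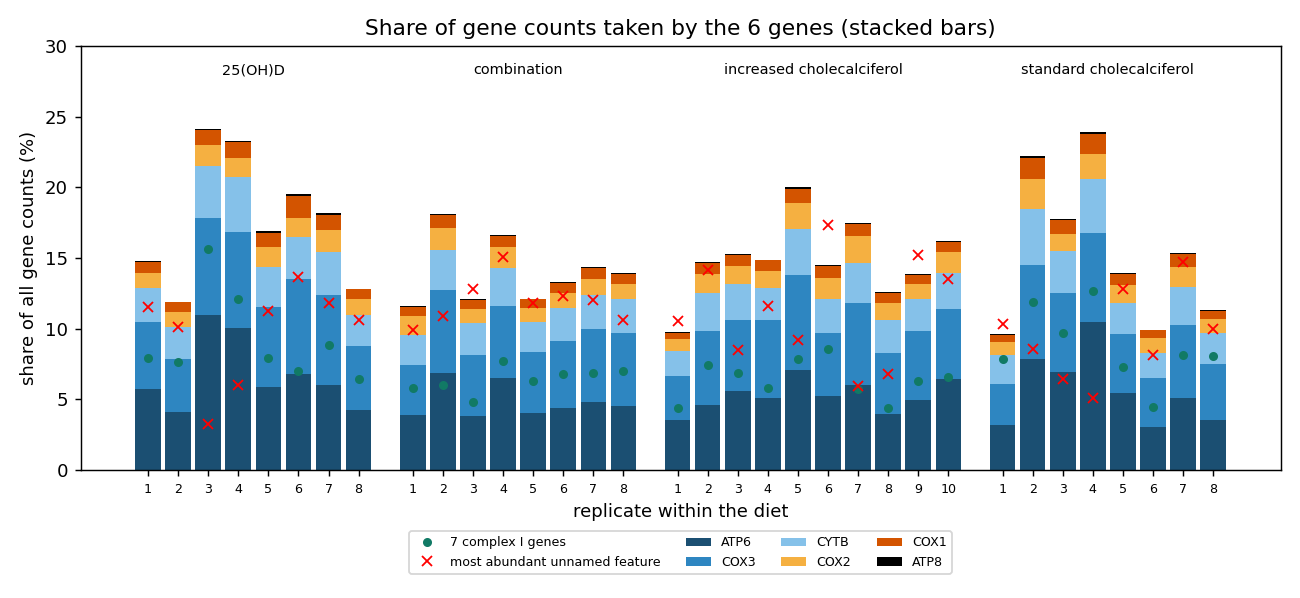
Share of all gene counts (%) taken by the 6 genes, stacked in 1 bar per library and grouped by diet, with the summed share of the 7 complex I genes (dots) and of the most abundant unnamed feature (crosses). The bars run from 9.59% in standard cholecalciferol replicate 1 to 24.1% in 25(OH)D replicate 3, and most of each bar is ATP6, COX3 and CYTB.

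The order of the 6 levels was nearly fixed. Behind ATP6 and COX3 came CYTB, then COX2, then COX1 and last ATP8 in 33 of 34 libraries, and in 25(OH)D replicate 6 COX1 stood above COX2. ATP6 and COX3 shared the first place: ATP6 was the higher in 21 libraries and COX3 in 13, and their ranges overlapped in every diet. ATP6 was above COX3 in 11 of the 12 libraries of files 1 to 12, in 8 of 12 of files 13 to 24, in 2 of 5 of files 25 to 29 and in 0 of 5 of files 30 to 34. Among all 31907 genes, ATP6 ranked between 1 and 3, COX3 between 2 and 3, CYTB between 4 and 6, COX2 between 5 and 11, COX1 between 7 and 12 and ATP8 between 30 and 204.

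Of the counts of the 6 genes, ATP6 held 35.5 ± 3.69%, COX3 33.0 ± 2.66%, CYTB 17.1 ± 1.39%, COX2 8.57 ± 1.22%, COX1 5.37 ± 0.684% and ATP8 0.473 ± 0.0827% (SD over 34 libraries). The proportions of CYTB and COX3 were the steadiest, with coefficients of variation of 8.10 and 8.07%, and that of ATP8 the most variable, with 17.5%.

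CYTB was at 22387, 29270 and 39174 CPM (lowest, median and highest) with 25(OH)D, at 21235, 23548 and 28089 CPM with the combination, at 17517, 24857 and 32676 CPM with increased cholecalciferol and at 18346, 24268 and 39466 CPM with standard cholecalciferol. All 4 diets overlapped, and standard cholecalciferol spanned almost the whole range on its own.

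COX1, the subunit that holds the site where oxygen is reduced, was at 6806, 10084 and 15461 CPM with 25(OH)D, at 6019, 7024 and 9245 CPM with the combination, at 4580, 7613 and 9892 CPM with increased cholecalciferol and at 4988, 8538 and 15007 CPM with standard cholecalciferol. The highest libraries of 25(OH)D and of standard cholecalciferol lay above all libraries of the other 2 diets, while the low ends of all 4 diets overlapped. COX2, which takes up electrons from cytochrome c, was at 10570, 13487 and 15220 CPM with 25(OH)D, at 9810, 11186 and 15707 CPM with the combination, at 8608, 13118 and 19063 CPM with increased cholecalciferol and at 8871, 12360 and 21009 CPM with standard cholecalciferol. Its highest libraries were thus not those of the 25(OH)D diet. COX3, a core subunit without a redox centre, was at 37662, 60155 and 68452 CPM with 25(OH)D, at 35426, 49221 and 58898 CPM with the combination, at 31493, 49805 and 67460 CPM with increased cholecalciferol and at 28475, 46731 and 67110 CPM with standard cholecalciferol. The median was highest with 25(OH)D, and the ranges of all 4 diets overlapped.

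ATP6 was at 40679, 59232 and 109941 CPM with 25(OH)D, at 37790, 44478 and 68295 CPM with the combination, at 35011, 51528 and 70367 CPM with increased cholecalciferol and at 30309, 52700 and 104824 CPM with standard cholecalciferol. It varied most of the 6 over all libraries, by 3.63-fold from lowest to highest, against 2.25-fold for CYTB and 2.40-fold for COX3. ATP8 was at 523, 701 and 921 CPM with 25(OH)D, at 510, 629 and 1033 CPM with the combination, at 504, 691 and 892 CPM with increased cholecalciferol and at 493.2, 794 and 1351 CPM with standard cholecalciferol. Both genes overlapped across all diets.

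**Figure D2:**
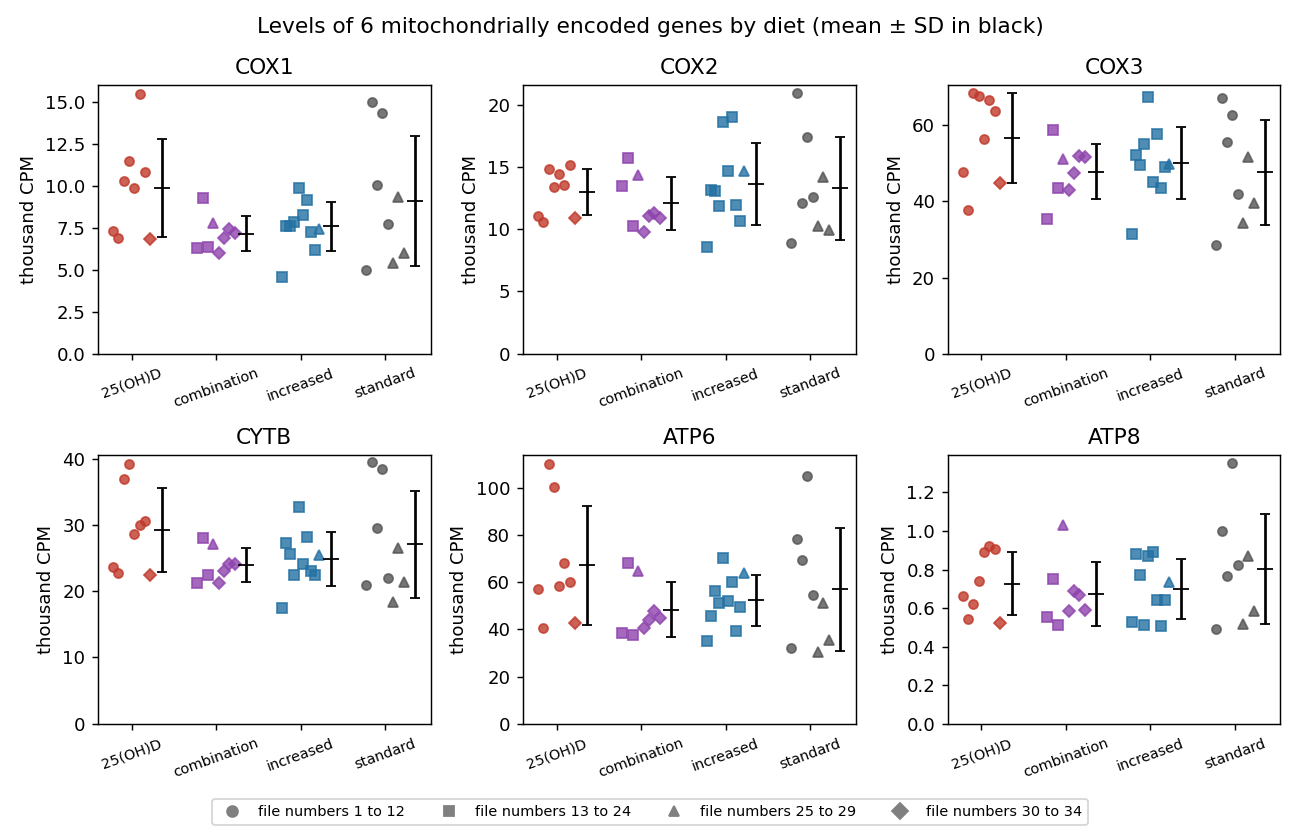
Level of each gene in CPM, drawn in units of 1000 CPM (vertical axis from 0), 1 point per library by diet, with the mean and SD in black and the point shape giving the run of file numbers. The diets overlap for each of the 6 genes, and the highest point of each gene is a library of 25(OH)D or standard cholecalciferol from files 1 to 12 (circles).

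The diets of matched dose were compared first, 25(OH)D against standard cholecalciferol and the combination against increased cholecalciferol, which tests the hydroxylated form against cholecalciferol in full or in part. In neither comparison was a change in any of the 6 genes called (edgeR quasi-likelihood test, 0 of 6 at an adjusted p under 0.05, where 0% of the 13974 genes tested were called, and 0 of 6 at an unadjusted p under 0.05, where 3.23 and 4.14% of all genes were). DESeq2 and limma-voom also called 0 of 6 in both, before and after adjustment. Before adjustment this stood beside 511 and 660 of all 13974 genes with DESeq2 and 808 and 476 with limma-voom. For 25(OH)D against standard cholecalciferol the log2 fold change of CYTB was 0.14, with a 95% interval of −0.26 to 0.55. COX1 was at 0.14 (−0.36 to 0.63), COX2 at −0.01 (−0.43 to 0.42), COX3 at 0.29 (−0.13 to 0.71), ATP6 at 0.26 (−0.30 to 0.82) and ATP8 at −0.13 (−0.60 to 0.35). These intervals leave room for differences of more than 1.5-fold in ATP6, COX3, COX1 and ATP8, so the data do not show that both forms act alike.

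For the combination against increased cholecalciferol all 6 values lay between −0.20, for COX2 (95% interval −0.60 to 0.21), and −0.07, for ATP8 (−0.52 to 0.38). The median over the 6 genes was 0.14 for 25(OH)D against standard cholecalciferol and −0.10 for the combination against increased cholecalciferol, beside −0.01 and −0.00 over all genes tested. Within files 1 to 24, where both diets of each pair came from the same 12 files, the medians were −0.01 and −0.12, with 0 of 6 genes at an unadjusted p under 0.05 in each, beside 2.2 and 2.56% of all genes. Without files 30 to 34 they were 0.21 and −0.04, with 0 of 6 in each, beside 3.43 and 1.73% of all genes.

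The comparisons across doses gave no calls after adjustment either. In each of the 4 remaining pairs edgeR, DESeq2 and limma-voom called 0 of 6 genes at an adjusted p under 0.05, and 0% of all genes. Without adjustment edgeR counted 1 of 6 genes for 25(OH)D against increased cholecalciferol, beside 12% of all genes, and 3 of 6 for 25(OH)D against the combination, beside 7.57% of all genes. It counted 0 of 6 for increased and 0 of 6 for combination against standard cholecalciferol, beside 7.77 and 4.34% of all genes. DESeq2 gave the same 4 counts of 1, 3, 0 and 0, beside 1828, 1167, 1207 and 660 of all 13974 genes. From limma-voom the counts were 0, 1, 0 and 0, beside 2334, 1710, 1502 and 603 of all genes.

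COX1 was the gene counted in both. Its log2 fold change was 0.49 for 25(OH)D against increased cholecalciferol (SE 0.23, edgeR unadjusted p = 0.0403, adjusted p = 0.408) and 0.60 for 25(OH)D against the combination (SE 0.25, unadjusted p = 0.0196, adjusted p = 0.653). ATP6 and CYTB were also counted against the combination, with 0.60 and 0.41 (SE 0.28 and 0.20, unadjusted p = 0.0396 and 0.0467, adjusted p = 0.653 and 0.655). All 6 genes had values above 0 in these 2 comparisons, with medians of 0.30 and 0.39. COX2 against increased cholecalciferol was near 0, at −0.08 when scaled by total counts and from −0.04 to 0.09 when single libraries were left out. Against standard cholecalciferol the medians were −0.19 for the increased dose and −0.30 for the combination, and COX1 was lowest in both, at −0.36 (SE 0.23) and −0.46 (SE 0.25). Without files 30 to 34 the medians were 0.37 for 25(OH)D against increased cholecalciferol and 0.45 against the combination, and 1 of 6 and 0 of 6 genes had an unadjusted p under 0.05, beside 10.2 and 13.1% of all genes. Those against standard cholecalciferol were −0.20 for the increased dose and −0.23 for the combination, with 0 of 6 in each, beside 7.23 and 7.34%. Within files 1 to 24 the 4 medians lay farther from 0. They were 0.39 for 25(OH)D against increased cholecalciferol, with 2 of 6 genes at an unadjusted p under 0.05 beside 7.78% of all genes, and 0.55 against the combination, with 0 of 6 beside 13% of all genes. Against standard cholecalciferol they were −0.47 for the increased dose, with 2 of 6 beside 7.55%, and −0.62 for the combination, with 1 of 6 beside 10.3%. These comparisons share libraries, so their directions are not independent.

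No run of files held both 25(OH)D and increased cholecalciferol, and files 1 to 12 and 13 to 24 held different diets, so that file numbers and diet cannot be told apart in these 4 comparisons. When the model also held the 4 runs of files, an alternative chosen after the data were seen, the values of all 6 genes turned below 0 for 25(OH)D against increased cholecalciferol (median −0.38) and against the combination (median −0.27), and above 0 for increased (0.43) and for combination (0.30) against standard cholecalciferol, with no adjusted p under 0.05. That fit rests on the few libraries of files 25 to 34 for these contrasts.

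**Figure D3:**
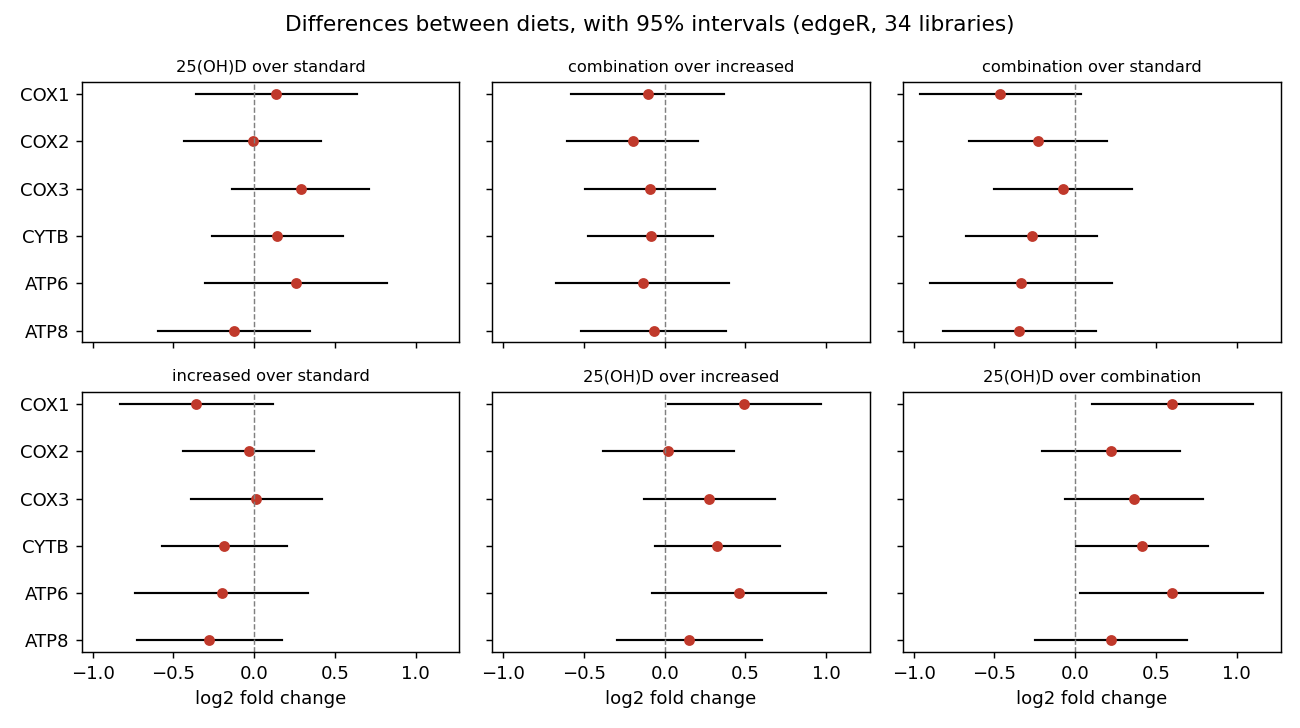
Log2 fold change of each gene for the 6 pairs of diets (points) with its 95% interval (lines), from edgeR over 34 libraries with sex in the model. In the pairs of matched dose (upper left and upper middle) each interval spans 0, and COX1 has the highest value in both comparisons of 25(OH)D with increased cholecalciferol and with the combination.

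A single F-test over all diets also left each of the 6 genes under no call (edgeR, 0 of 6, adjusted p from 0.731 to 0.907, beside 0% of all genes). COX1 had the smallest unadjusted p, 0.0541, and 0 of 6 were under 0.05, beside 6.71% of all genes.

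Ratios among the 6 genes do not depend on the scaling of a library, and differed between diets in 4 of 36 tests, each of them a ratio of COX1 to COX2 or COX3. Each ratio of counts was compared on the log2 scale between all pairs of diets by a two-sided exact permutation test, with adjustment over 6 ratios and 6 pairs. COX1/COX2 was at 0.624, 0.689 and 1.14 (lowest, median and highest) with 25(OH)D, at 0.467, 0.616 and 0.658 with the combination and at 0.479, 0.571 and 0.657 with increased cholecalciferol. Of the 8 libraries of 25(OH)D, 6 lay above all 10 of increased cholecalciferol, and 9 of those 10 lay below all 8 of 25(OH)D. In log2 units the ratio was −0.44 ± 0.29 with 25(OH)D, against −0.84 ± 0.13 with increased cholecalciferol (SD), a difference of 0.40 (exact permutation p = 6.86e-05, adjusted p = 0.00247). Against the combination, at −0.76 ± 0.17, the difference was 0.32 (exact permutation p = 0.0014, adjusted p = 0.0252). Without 25(OH)D replicate 6, the library with the highest ratio, these differences were 0.31 and 0.23 and both adjusted p-values stayed under 0.05.

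COX1/COX3 was at 0.126, 0.148 and 0.184 with increased cholecalciferol, at 0.139, 0.145 and 0.177 with the combination and at 0.152, 0.181 and 0.229 with standard cholecalciferol. Of the libraries, 6 of 10 with increased cholecalciferol and 5 of 8 with the combination lay below all 8 of standard cholecalciferol. In log2 units the ratio was −2.73 ± 0.15 with increased cholecalciferol and −2.74 ± 0.12 with the combination, against −2.45 ± 0.21 with standard cholecalciferol. The differences were −0.28 (exact permutation p = 0.00329, adjusted p = 0.0296) and −0.30 (exact permutation p = 0.00295, adjusted p = 0.0296).

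All 4 of these differences set diets mainly of files 1 to 12 against diets that files 1 to 12 did not hold, so that diet and file number cannot be told apart. Within files 30 to 34, COX1/COX2 in log2 units was −0.68 in the 1 library of 25(OH)D, against −0.70 to −0.60 in the 4 of the combination. Within files 25 to 29, COX1/COX3 was −2.75 with increased cholecalciferol and −2.72 with the combination, 1 library each, against −2.72 to −2.46 in 3 libraries of standard cholecalciferol, and neither set can reach a p under 0.05 (smallest exact permutation p 0.2 and 0.25). Leaving out files 30 to 34, an alternative chosen after the data were seen, left the difference in COX1/COX2 between 25(OH)D and increased cholecalciferol under the threshold. COX1/COX2 was then 0.46 for 25(OH)D against the combination, larger than over all libraries but with 4 libraries of the combination (exact permutation, adjusted p = 0.109), and COX1/COX3 was −0.22 for the combination against standard cholecalciferol (adjusted p = 0.291). Files 30 to 34 held neither increased nor standard cholecalciferol, so the difference of −0.28 in COX1/COX3 and its unadjusted p were the same, and its adjusted p was 0.0592 only because the other tests had changed. Leaving out single libraries, the call in COX1/COX2 against increased cholecalciferol held in 18 of 18 cases, that against the combination was lost in 4 of 16 (combination replicates 3 to 6, adjusted p up to 0.0578), and both calls in COX1/COX3 were lost in 9 cases each (adjusted p up to 0.0722). For both these were standard cholecalciferol replicates 2, 4 and 5, with increased cholecalciferol replicates 1, 2, 4, 5, 9 and 10 for the one diet and combination replicates 3 to 8 for the other.

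**Figure D4:**
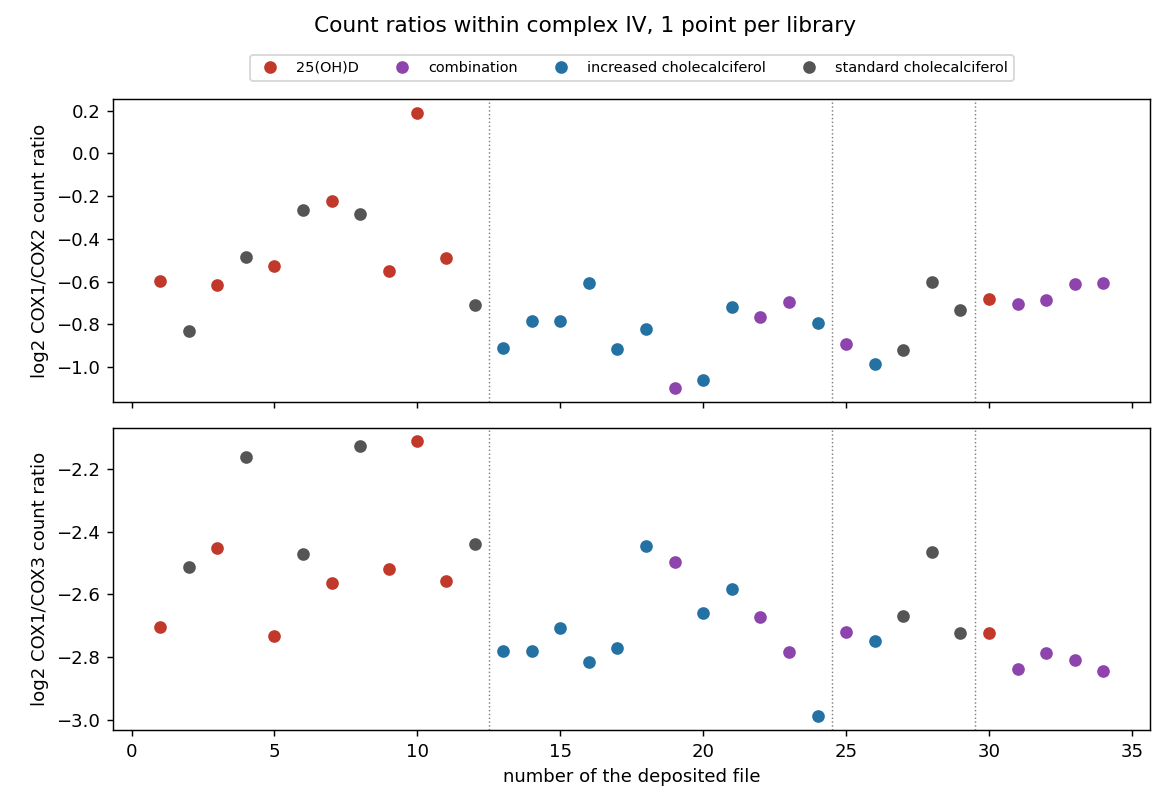
Log2 ratio of counts of COX1 to COX2 (top) and of COX1 to COX3 (bottom) for each library, against the number of its deposited file, coloured by diet, with dotted lines between the 4 runs of file numbers. The libraries of 25(OH)D and standard cholecalciferol in files 1 to 12 reach above the others, and those of the same diets in files 25 to 34 lie among the rest.

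In the pairs of matched dose no ratio passed the adjusted threshold. The smallest p was that of COX2/COX3 for 25(OH)D against standard cholecalciferol. The ratio was at 0.198, 0.235 and 0.281 with 25(OH)D, against 0.217, 0.288 and 0.313 with standard cholecalciferol. The 3 lowest libraries of 25(OH)D lay below all of standard cholecalciferol, and the 4 highest of standard cholecalciferol lay above all of 25(OH)D. The difference in log2 units was −0.27 (exact permutation p = 0.0118, adjusted p = 0.0850), and −0.29 within files 1 to 12 (7 against 5 libraries, exact permutation p = 0.0354, not adjusted). Leaving out standard cholecalciferol replicate 3 brought the adjusted p to 0.0261, and leaving out 25(OH)D replicate 2 also brought it under the threshold. For the combination against increased cholecalciferol the differences of the 6 ratios ranged from −0.10 for COX2/COX3 to 0.08 for COX1/COX2.

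ATP8/ATP6, 2 reading frames of the same RNA, was at 0.00566, 0.0128 and 0.0152 with 25(OH)D, at 0.0110, 0.0141 and 0.0159 with the combination, at 0.0100, 0.0129 and 0.0193 with increased cholecalciferol and at 0.0110, 0.0152 and 0.0171 with standard cholecalciferol. The lowest ratio was in 25(OH)D replicate 3, the library with the most ATP6. No pair of diets passed the threshold (largest difference −0.38 in log2 units, 25(OH)D against standard cholecalciferol, exact permutation p = 0.0713, adjusted p = 0.257). ATP6/COX3, neighbours without a tRNA between them, had a median of 1.04 and ran from 0.867 to 1.67. It did not pass the threshold between any diets over all libraries. Within files 1 to 24 it was 0.34 lower in log2 units with increased than with standard cholecalciferol (adjusted p = 0.0300 by exact permutation), a comparison of files 13 to 24 with files 1 to 12.

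CYTB/COX1, which sets complex III beside complex IV, had a median of 3.30 and passed the threshold between no diets (adjusted p 0.344 or more by exact permutation). It varied least with the combination, where it ran from 3.04 to 3.55, and most with 25(OH)D, where it ran from 1.94 in replicate 6 to 3.58.

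Neither sex nor its combination with diet gave a call. In females against castrated males the log2 fold changes ran from −0.15 for CYTB (SE 0.14) to 0.01 for ATP8 (SE 0.16), and edgeR called 0 of 6 (adjusted p 0.857 or more), beside 11 of all genes or 0.0787%. At an unadjusted p under 0.05 the count was 0 of 6, beside 6.58% of all genes. Without files 30 to 34, which held the 4 females with Y-linked levels in the range of males, edgeR called 0 of 6, beside 12 of 14804 genes. At an unadjusted p under 0.05 the count was again 0 of 6, beside 1290 of 14804 genes, and the median of the 6 genes was −0.04. The interaction of diet and sex called 0 of 6 as well, adjusted (beside 0% of all genes) and unadjusted (beside 2.74%). It was given over all libraries only, with the sex labels of these 4 females as they stand.

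The 7 complex I genes of mitochondrial DNA had medians on the same side of 0 as the 6 genes in all 6 pairs of diets. Their median log2 fold change was 0.47 for 25(OH)D against increased cholecalciferol, 0.59 for 25(OH)D against the combination, −0.40 for increased and −0.48 for combination against standard cholecalciferol, beside medians between −0.01 and 0.01 over all genes tested. At an unadjusted p under 0.05 these comparisons counted 5, 4, 4 and 4 of 7, beside 12, 7.57, 7.77 and 4.34% of all genes. After adjustment edgeR called 0 of 7 in each. ND3 and ND2, both subunits of complex I, were at 0.68 (SE 0.24) and 0.73 (SE 0.26) for 25(OH)D against the combination (edgeR adjusted p = 0.653 each). In the pairs of matched dose 0 of 7 were counted, beside 3.23 and 4.14% of all genes, with medians of 0.09 and −0.05. Without files 30 to 34 the first 4 medians were 0.54, 0.72, −0.41 and −0.51. The counts were then 5, 4, 3 and 2 of 7, beside 10.2, 13.1, 7.23 and 7.34% of all genes. The pairs of matched dose were then at 0.16 and −0.13, with 0 of 7 in each, beside 3.43 and 1.73%. The same limit of file numbers holds for these values.

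Among the nuclear genes that complete these complexes no change was called. Of the nuclear subunits of complex III, 7 of 9 listed genes were tested, of complex IV 12 of 15 and of complex V 11 of 18. In all 6 pairs of diets edgeR called 0 of each, with and without files 30 to 34. For 25(OH)D against the combination, where the 6 mitochondrial genes had a median of 0.39, the medians were 0.14 for complex III, 0.06 for complex IV and −0.07 for complex V. At an unadjusted p under 0.05 there were 0, 1 and 2 genes, beside 7.57% of all genes. Without files 30 to 34 the medians were 0.08, 0.09 and −0.20. At an unadjusted p under 0.05, 1 gene of complex III was then lower, 2 of complex IV were higher and complex V had 1 each way, beside 13.1% of all genes. COX4I1, which binds the mitochondrially made core of complex IV, was at 0.38 for 25(OH)D against increased cholecalciferol (SE 0.14, edgeR adjusted p = 0.310), and ATP5ME, a subunit of the membrane part of ATP synthase, at 0.43 (SE 0.14, adjusted p = 0.306). COX7A1, the form of its subunit found in heart and skeletal muscle, was at −1.10 for increased against standard cholecalciferol (SE 0.46, edgeR adjusted p = 0.625). COX7A1 averaged only 1.19 CPM, with 3 libraries at 0, against 375 CPM for COX4I1 and 366 CPM for ATP5ME.

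Of 30 listed genes for the assembly and translation of the 6 products 20 were tested, and of 27 for mitochondrial transcription and RNA stability 24 were, with 0 called by edgeR in any pair of diets. COX17, a copper carrier for cytochrome oxidase, was at 0.50 for the combination against standard cholecalciferol (SE 0.18, adjusted p = 0.999). LRPPRC, which stabilises mitochondrial messengers, was at −0.31 for 25(OH)D against increased cholecalciferol (SE 0.12, adjusted p = 0.314). GABPA, a nuclear factor that activates genes of oxidative phosphorylation, was at −0.78 for 25(OH)D against the combination (SE 0.25, adjusted p = 0.653). Over all libraries the medians of both lists lay within 0.07 of 0 in every pair of diets. Without files 30 to 34 this held apart from 0.13 for the assembly and translation list, combination against increased cholecalciferol.

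The muscle list gave values that turned on files 30 to 34 in the comparisons with the combination. Its 14 tested genes had a median of 0.70 for the combination against standard cholecalciferol, with 11 at an unadjusted p under 0.05, beside 4.34% of all genes. The median for 25(OH)D against standard cholecalciferol was 0.55, with 6 genes, beside 3.23% of all genes. Without files 30 to 34 these medians were 0.08, with 0 genes beside 7.34% of all genes, and 0.44, with 3 genes beside 3.43%. For the combination against increased cholecalciferol the median went from 0.30, with 3 genes beside 4.14%, to −0.30, with 1 gene beside 1.73%. For 25(OH)D against the combination it went from −0.11, with 0 genes beside 7.57%, to 0.40, with 1 gene beside 13.1%. Increased against standard cholecalciferol, diets absent from files 30 to 34, was at 0.41 and 0.44, with 5 genes in each, beside 7.77 and 7.23%. None was called after adjustment by edgeR in either set of libraries. The summed level of the list was 6715 to 9569 CPM in the 4 libraries of the combination from files 30 to 34 and 2788 to 4376 CPM in its other 4. It was 8132 CPM in the 1 library of 25(OH)D from files 30 to 34 and 2862 to 8412 CPM in the other 7. With increased cholecalciferol it ran from 2192 to 5725 CPM and with standard cholecalciferol from 1641 to 6807 CPM. The part of these levels in the values of the 6 genes was not tested. PVALB, on that list, is also a gene of brain interneurons. The liver list summed to 161 to 1306 CPM.

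Across the 34 libraries the 6 genes varied together. Pearson's r of log2(CPM + 1) passed the threshold for 15 of 15 pairs, from 0.64 for ATP8 with COX3 (Spearman's rho 0.62, permutation p = 7e-05, adjusted p = 0.000137 over 39 relations) to 0.92 for ATP6 with CYTB (rho 0.90, permutation p = 1e-05, the smallest that 100000 draws can give, adjusted p = 2.17e-05). Without the 2 libraries farthest from the median these were 0.66 and 0.89, and within files 1 to 24 they were 0.64 and 0.91. ATP6 and ATP8, despite their common RNA, were at 0.69, below ATP6 with COX1 at 0.85. Scaled to the counts outside the 6 genes and the 7 complex I genes of mitochondrial DNA, r was higher for all 15 pairs, from 0.77 to 0.95. Mitochondrial rRNA and tRNA genes were not taken out of that total.

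The neuron list ran against all 6 genes. Its r was −0.84 with COX3 (rho −0.81), −0.84 with CYTB (rho −0.79), −0.80 with COX1 (rho −0.74), −0.75 with ATP6 (rho −0.67), −0.64 with COX2 (rho −0.61) and −0.51 with ATP8 (rho −0.50), each past the threshold (adjusted permutation p 0.00366 or less). Without the 2 farthest libraries the range was −0.82 to −0.52, and within files 1 to 24 it was −0.83 to −0.45. The 6 genes took up to 24.1% of the counts, and CPM of all genes share that total. Scaled to the counts outside the mitochondrially encoded protein-coding genes, r was −0.56 with COX3 (rho −0.55, adjusted permutation p of r = 0.000964). With ATP8 it was −0.30 and no longer passed (adjusted permutation p = 0.0938), and the other 4 passed. The rho of −0.40 with ATP8 still passed (adjusted permutation p = 0.0281).

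On the same scale the astrocyte list ran with all 6 genes, from 0.46 with ATP8 to 0.64 with COX3 (rho 0.45 and 0.60, adjusted permutation p of r = 0.0104 and 0.000171). As CPM the astrocyte list passed by r with COX3 alone (0.40, adjusted permutation p = 0.0310), and there its rho of 0.31 did not pass (adjusted permutation p = 0.0954). The oligodendrocyte list also passed by r with COX3 alone as CPM (0.46, rho 0.41, adjusted permutation p of r = 0.0120), and on the other scale it passed with 4 genes, from 0.39 with ATP6 to 0.53 with COX3. By rho as CPM the oligodendrocyte list passed with COX1 too (0.37, adjusted permutation p = 0.0480). Within files 1 to 24 neither list passed with COX3 as CPM: the astrocyte list was at 0.40 (adjusted permutation p = 0.0877) and the oligodendrocyte list at 0.41 (adjusted permutation p = 0.0863). As CPM the muscle list lay between −0.37 with ATP8 (rho −0.39, adjusted permutation p of r = 0.0496), where alone it passed by r, and −0.02 with COX3. By rho the muscle list passed with ATP6, ATP8, COX1 and COX2 (adjusted permutation p = 0.0399, 0.0362, 0.0331 and 0.0362). With ATP8 the muscle list was at −0.29 within files 1 to 24 (adjusted permutation p = 0.281). Scaled to counts outside the mitochondrially encoded protein-coding genes it was at −0.28 (adjusted permutation p = 0.127), and on that scale it passed with none of the 6. Without the 2 libraries farthest from its median it passed as CPM for 5 of 6 genes, from −0.57 with ATP6 to −0.45 with COX2, and was −0.23 with COX3. None of these relations assigns the counts to a cell type.

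**Figure D5:**
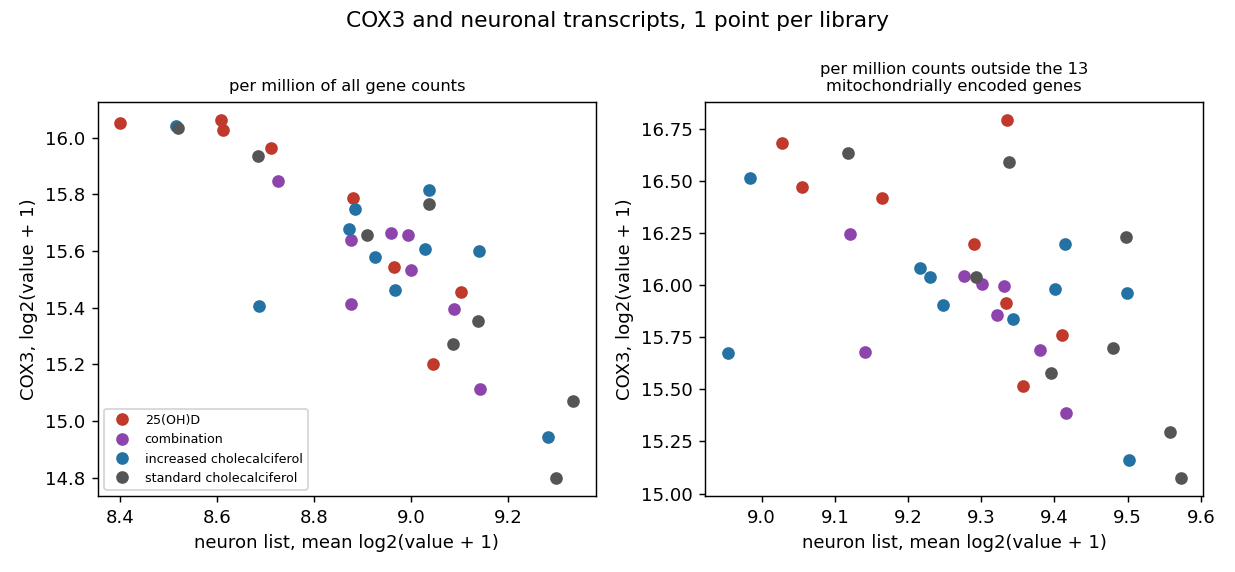
COX3 against the mean of the neuron list, both as log2(value + 1), 1 point per library coloured by diet, as CPM (left) and scaled to the counts outside the mitochondrially encoded protein-coding genes (right). Pearson's r is −0.84 on the left and −0.56 on the right, and the diets are mixed along both trends.

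Among the genes that are no members and carry a symbol, those most alike in log2 CPM over 34 libraries differed from gene to gene. For CYTB they were ND1 (r = 0.89), ACSBG1 (0.84) and ND4L (0.82), and for COX1 they were ACSBG1 (0.82), ND4L (0.82) and ULK2 (0.78). COX2 was followed by ND4L (0.90), ARNT2 (0.80) and ULK2 (0.78), and COX3 by PAMR1 (0.87), CXCL14 (0.87) and TPPP (0.86). The nearest to ATP6 were MT3 (0.88), a brain metallothionein, ND1 (0.85) and ADGRG1 (0.85), and the nearest to ATP8 were CCDC146 (0.79), ZC3H12B (0.78) and FBXL16 (0.78). Thus 4 of the 6 genes had a complex I gene of mitochondrial DNA among their 3 nearest, and COX3 and ATP8 had none. These values describe the libraries, and within files 1 to 24 they ran from 0.74 to 0.89.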

How the data were processed

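RNA of 34 samples labelled muscle was isolated with Trizol and sequenced by QuantSeq 3′ forward libraries, per the labels' protocols. The deposited values are raw counts per gene, 1 file per library, with the closing categories that HTSeq writes, per the file contents. The tools of the authors were FastQC, TopHat, HTSeq and DESeq2, named without order or role, per the submitters' processing notes. Versions, genome build and strand setting: not given in the sources used here. Closing categories of each file, which are no genes, were left out (16.4 to 29.9% of reads lay outside features, 3.63 to 4.68% were ambiguous, 11.2 to 20.7% aligned to several places).

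Symbols of 15029 identifiers came from a name table. No 2 files were identical. The closest pair by chi-square, 25(OH)D replicate 8 and combination replicate 5, still differed by 2.27 per gene, above sampling noise. Diet and sex came from the labels. Replicate numbers are in accession order. The series' design text counts individuals per diet, so each library was taken as 1 pig.

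Levels were tested with edgeR 4.0.16 in R 4.3.3 (TMM scaling, filter by diet, diet and sex in 1 model over 34 libraries, Benjamini-Hochberg over 13974 genes, threshold 0.05). Ratios were compared by exact permutation over 36 tests, and correlations by 100000 permutations over 39 relations. The tests were checked on simulated data. DESeq2 1.42.0, limma 3.58.1 (voom), other scalings, no filter, no sex term, runs of file numbers and libraries left out were alternatives. The 6 genes, the gene lists and the tests were chosen with earlier results of these data known. Named genes are the 6 members, up to 4 genes per list with the smallest p over all pairs of diets, of which some are given, and the 3 non-members most correlated with each member. MT rRNA genes were not analysed here, since their symbols matched no identifier.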

Additional observations from a re-analysis of the deposited data

Results flagged for a closer look

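In 52 sets of 1 measure in 1 diet, 3 had a library far from the others by Dixon's test at 95%, where chance gives about 1 in 20. ATP8 stood at 1033 CPM in combination replicate 4, with the next library of that diet at 751 CPM. This library also had the most counts of all, 30363640. In 25(OH)D replicate 6 the log2 ratio of COX1 to COX3 was −2.11, with the next at −2.45, and the log2 ratio of CYTB to COX1 was 0.95, with the next at 1.499. Both rest on its COX1 level of 15461 CPM, the highest of 34 libraries, while its COX2, COX3 and CYTB levels of 13568, 66807 and 29964 CPM lay within the range of the other 25(OH)D libraries. No cause was tested.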

How the results depend on the processing

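No member passed the adjusted threshold between diets under any scaling, filter, tool, model or set of libraries tried, so the changes of sign below are between values that were not called. Differences are in log2 units. Leaving out files 30 to 34 and adding 4 runs of files to the model were chosen after seeing the data.

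For 25(OH)D against standard cholecalciferol, COX1 turned to −0.0029 with the 4 runs and −0.024 in files 1 to 24. COX2 turned to 0.0046 with DESeq2 or its size factors and 0.00074 with scaling that left out mitochondrially encoded protein-coding genes. It was 0.052 with limma-voom and 0.044 without files 30 to 34. For increased against standard cholecalciferol, the 4 runs gave ATP6 0.73, ATP8 0.54, COX1 0.26, COX2 0.38 and CYTB 0.36. COX2 was 0.045 by total counts and 0.0079 with limma-voom, and COX3 −0.010 without sex, −0.027 with 3 runs and −0.17 in files 1 to 24. For the combination against standard cholecalciferol, the 4 runs gave ATP6 0.58, ATP8 0.42, COX1 0.17, COX2 0.27, COX3 0.34 and CYTB 0.25, and total counts gave COX3 0.016. For the combination against increased cholecalciferol, 3 runs gave ATP6 0.12, ATP8 0.14, COX1 0.094, COX2 0.0037 and CYTB 0.055, and ATP8 was 0.060 without files 30 to 34. For 25(OH)D against increased cholecalciferol, the 4 runs gave ATP6 −0.57, ATP8 −0.71, COX1 −0.26, COX2 −0.43, COX3 −0.30 and CYTB −0.32, and total counts gave COX2 −0.077. For 25(OH)D against the combination, they gave ATP6 −0.43, ATP8 −0.59, COX1 −0.17, COX2 −0.32, COX3 −0.16 and CYTB −0.22. In females against castrated males, files 1 to 24 gave ATP6 0.011, COX1 0.037 and COX2 0.037.

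Among the ratios, files 1 to 24 gave COX1/COX2 0.45 for 25(OH)D against the combination (exact permutation, adjusted p = 0.215) and COX1/COX3 −0.31 for the combination against standard cholecalciferol (adjusted p = 0.268). Without files 30 to 34, 1 ratio test passed rather than 4. COX1/COX2 was then 0.46 for 25(OH)D against the combination (adjusted p = 0.109), and COX1/COX3 −0.28 for increased (adjusted p = 0.0592, from the same libraries and unadjusted p as before) and −0.22 for combination (adjusted p = 0.291) against standard cholecalciferol. Signs turned in files 1 to 24 for ATP8/ATP6 (0.020, increased against standard cholecalciferol), ATP6/COX3 (−0.14, 25(OH)D against standard cholecalciferol) and COX2/COX3 (0.030, combination against standard cholecalciferol, and 0.038 without files 30 to 34). For the combination against increased cholecalciferol, files 1 to 24 gave ATP8/ATP6 −0.074, ATP6/COX3 0.020, COX1/COX2 −0.031, COX1/COX3 0.075 and COX2/COX3 0.11, and leaving out files 30 to 34 gave ATP6/COX3 0.062, COX1/COX2 −0.025, COX1/COX3 0.060 and COX2/COX3 0.085. Scaled to counts outside the mitochondrially encoded protein-coding genes, 15 rather than 9 relations with marker lists passed by Pearson's r. The muscle list with COX3 was then at 0.048, against 0.050 in files 1 to 24.

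Leaving out single libraries, 1 to 5 ratio tests passed, the lowest without combination replicate 3, 4, 5 or 6. COX1/COX2 ran from 0.23 to 0.36 for 25(OH)D against the combination. COX1/COX3 ran from −0.32 to −0.24 for increased and from −0.34 to −0.25 for combination against standard cholecalciferol, and from −0.051 to 0.016 for the combination against increased cholecalciferol. For 25(OH)D against standard cholecalciferol the ranges were −0.22 to 0.088 for ATP8, −0.0091 to 0.34 for COX1, −0.084 to 0.17 for COX2, −0.065 to 0.085 for ATP6/COX3 and −0.076 to 0.051 for CYTB/COX1. For increased against standard cholecalciferol they were −0.32 to 0.10 for ATP6, −0.11 to 0.13 for COX2 and −0.080 to 0.16 for COX3. COX3 ran from −0.17 to 0.060 for the combination against standard cholecalciferol, ATP8 from −0.22 to 0.0037 for the combination against increased cholecalciferol, and COX2 from −0.039 to 0.093 for 25(OH)D against increased cholecalciferol.

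No paired analysis was possible because the labels carry no replicate numbers. The cause of these changes was not tested. Depth was lowest in files 30 to 34, and few libraries join diets within a run of files, which limits each estimate that rests on them.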
